A study of Mus musculus with 42 samples.

Results

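The genes described here are 32 enzymes and regulators of cholesterol and fatty acid synthesis, followed through mouse cells exposed to bisphenol S (BPS), a plasticizer that can act on estrogen receptors. The members were picked by gene symbol, with earlier results of these data known. All 32 were found among the 22186 genes of the expression table. They fall into 18 sterol enzymes, 6 SREBP regulators and transport genes (Insig1, Insig2, Srebf1, Srebf2, Scap and Stard4) and 8 fatty acid enzymes (Fasn, Scd1, Scd2, Acaca, Acly, Elovl6, Fads1 and Fads2). All 32 passed the filter on low values in every comparison, which asked for at least 0.5 CPM (counts scaled to a library of equal size) in at least 3 libraries.

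Cells make cholesterol from acetyl-CoA through mevalonate, squalene and lanosterol. Most genes of this route are switched on by SREBP-2, the product of Srebf2, and many fatty acid genes by SREBP-1c, a product of Srebf1. Both proteins are held in the endoplasmic reticulum with SCAP by INSIG proteins when sterols are plentiful, and are carried to the Golgi and cut free when sterols run low. Insig1 is itself an SREBP target, and Stard4 codes for a carrier of cholesterol between membranes. Sertoli cells are the somatic nurse cells of the testis, and granulosa cells are the estrogen-producing somatic cells of the ovarian follicle.

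The study asked how BPS dose and cell type set the response, and whether changes in exposed pluripotent cells are still seen in germ cells made from them. RNA was sequenced from 42 libraries in 14 groups of 3. Induced pluripotent stem cells (iPSCs) of the dose series received 1, 50 or 100 µM BPS or the ethanol vehicle for 24 h and were collected after a chase of 24 h without it. Sertoli cells and granulosa cells received 1 µM BPS or the vehicle by the same schedule. Primordial germ cell-like cells (PGCLCs) received 1 µM BPS or the vehicle for 24 h in culture plates, with a chase of 8 h before they were sorted by the surface proteins FUT4 and ITGB3. In the propagation experiment, iPSCs received 1 µM BPS or the vehicle, and PGCLCs were then derived from both through epiblast-like cells, so that the derived PGCLCs were not themselves exposed. The iPSCs were 1 male line made from fibroblasts of 1 fetus with an inducible reprogramming transgene, and the Sertoli and granulosa cells were primary cultures from about 5 littermates at postnatal day 20. Replicates were separate flasks or batches that the labels do not tie to separate animals, so the p-values measure the spread between these libraries, which may be technical.

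Libraries held between 26693847 and 44524376 counted reads. The 5 pluripotency markers summed to between 3570 and 3920 CPM in iPSC libraries and to at most 0.883 CPM in Sertoli and granulosa libraries, and 6 Sertoli markers summed to between 2700 and 2900 CPM in Sertoli libraries, which also held 1070 to 1200 CPM of smooth muscle, 597 to 739 CPM of fibroblast and 201 to 290 CPM of granulosa markers. The granulosa markers that were measured (5 of 6, without Cyp19a1) summed to between 1610 and 1800 CPM in granulosa libraries, which also held between 1310 and 1470 CPM of steroidogenic (Leydig or theca), between 1990 and 2330 CPM of smooth muscle and between 1420 and 1670 CPM of fibroblast markers. Comparisons of Sertoli and granulosa cells are of these mixed cultures. In these bulk libraries, fewer cells of a type and less RNA per cell cannot be told apart.

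Promoter windows of 6 members are shown because these genes stand for the patterns below. Hmgcs1 (HMG-CoA synthase), Msmo1 and Nsdhl (C4 demethylation of sterols) were sterol enzymes called higher at every iPSC dose, Insig1 and Elovl6 (elongation of palmitate) were called in opposite directions in iPSCs (at 100 µM) and PGCLCs (at 1 µM), and Fasn (fatty acid synthase) was called lower in Sertoli cells. The windows run from 250 bases before to 50 bases after a RefSeq start of the gene on GRCm38.p6, 5′ to 3′ on the gene's strand. They lie at chr13:119690101-119690400, plus strand for Hmgcs1, chr8:64733529-64733828, minus strand for Msmo1, chrX:72918271-72918570, plus strand for Nsdhl, chr5:28071162-28071461, plus strand for Insig1, chr3:129532136-129532435, plus strand for Elovl6 and chr11:120824498-120824797, minus strand for Fasn. Each holds the start used and the sequence before it. The Fasn window lies inside the annotated gene, whose 5′ end is at chr11:120825166, so the start used for it is not that end. Capitals mark, as the letters given or as their reverse complement, the classical sterol regulatory element TCACCCCAC (an instance of the looser form TCACNCCAC), the E-box CACGTG, the NF-Y box CCAAT and the Sp1 box GGGCGG.
Hmgcs1: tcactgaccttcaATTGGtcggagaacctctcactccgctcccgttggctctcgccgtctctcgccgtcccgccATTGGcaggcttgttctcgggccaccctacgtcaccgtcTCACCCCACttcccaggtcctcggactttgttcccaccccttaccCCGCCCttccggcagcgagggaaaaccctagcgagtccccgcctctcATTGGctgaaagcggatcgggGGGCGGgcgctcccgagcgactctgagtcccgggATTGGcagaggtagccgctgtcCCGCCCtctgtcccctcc
Msmo1: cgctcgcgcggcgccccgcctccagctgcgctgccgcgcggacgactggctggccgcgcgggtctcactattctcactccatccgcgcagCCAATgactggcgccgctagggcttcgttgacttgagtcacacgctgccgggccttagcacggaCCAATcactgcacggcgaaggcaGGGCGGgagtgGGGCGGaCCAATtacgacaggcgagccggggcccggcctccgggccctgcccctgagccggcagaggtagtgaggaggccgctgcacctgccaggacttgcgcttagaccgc
Nsdhl: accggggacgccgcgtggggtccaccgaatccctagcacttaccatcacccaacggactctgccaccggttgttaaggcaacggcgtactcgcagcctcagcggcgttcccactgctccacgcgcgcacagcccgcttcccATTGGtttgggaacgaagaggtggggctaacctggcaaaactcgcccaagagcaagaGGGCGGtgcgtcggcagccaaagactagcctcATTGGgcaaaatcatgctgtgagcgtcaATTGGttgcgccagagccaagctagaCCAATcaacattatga
Insig1: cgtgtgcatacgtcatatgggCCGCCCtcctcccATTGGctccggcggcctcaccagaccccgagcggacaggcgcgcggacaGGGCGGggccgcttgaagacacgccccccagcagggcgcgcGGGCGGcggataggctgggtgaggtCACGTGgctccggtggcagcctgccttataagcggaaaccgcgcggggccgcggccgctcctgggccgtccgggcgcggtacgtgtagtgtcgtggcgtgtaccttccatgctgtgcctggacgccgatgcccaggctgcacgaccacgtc
Elovl6: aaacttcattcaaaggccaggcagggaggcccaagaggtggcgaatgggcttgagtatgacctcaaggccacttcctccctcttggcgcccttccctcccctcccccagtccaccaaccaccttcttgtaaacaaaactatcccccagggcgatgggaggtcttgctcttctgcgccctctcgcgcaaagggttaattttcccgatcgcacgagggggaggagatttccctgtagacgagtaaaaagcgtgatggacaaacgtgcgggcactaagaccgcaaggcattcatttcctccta
Fasn: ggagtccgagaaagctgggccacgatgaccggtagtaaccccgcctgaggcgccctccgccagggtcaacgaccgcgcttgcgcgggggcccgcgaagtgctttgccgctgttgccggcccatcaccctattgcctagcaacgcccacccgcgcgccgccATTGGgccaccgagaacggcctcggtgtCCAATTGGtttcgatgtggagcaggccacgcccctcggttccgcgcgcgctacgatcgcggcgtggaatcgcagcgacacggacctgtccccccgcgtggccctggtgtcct

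Among the printed windows, that of Hmgcs1 had 1 sterol regulatory element, 4 CCAAT and 3 GGGCGG matches, that of Msmo1 3 CCAAT and 2 GGGCGG, that of Nsdhl 4 CCAAT and 1 GGGCGG, that of Insig1 1 CACGTG, 1 CCAAT and 3 GGGCGG, and that of Fasn 3 CCAAT, while none was found in that of Elovl6. RefSeq windows were matched for 25 of the 32 members, 5 of them with several windows. TCACCCCAC was found for 1 of 25 members (Hmgcs1), against 0.614% of 27025 genes, and TCACNCCAC for the same 1, against 1.44%. CCAAT was found for 14 of 15 sterol enzymes, 4 of 5 regulators and 2 of 5 fatty acid enzymes, against 41.1% of genes, and GGGCGG for 14 of 15, 5 of 5 and 2 of 5, against 38.2%. CACGTG was found for 5 of 25 members (Hsd17b7, Sc5d, Dhcr7, Insig1 and Scap), against 8.09% of genes. These matches describe the letters in the windows and are not binding sites.

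In the iPSC dose series, sterol enzymes (18 of 32 members) were most of those called higher with BPS at each of 3 doses. Most fatty acid enzymes had values below the vehicle. A gene was called changed at an adjusted p of at most 0.05 (limma, Benjamini-Hochberg over all genes tested). At 1 µM, 4 of 18 sterol enzymes were called higher and 0 lower, where 5.61% of all 16349 genes tested were called higher and 2.94% lower. The counts were 10 of 18 higher at 50 µM, against 13.1% of genes higher and 13.3% lower, and 11 of 18 higher at 100 µM, against 15.3% higher and 15.4% lower. Sterol enzymes called lower numbered 0 at each dose. The median log2 difference of the 18 sterol enzymes was 0.12 at 1 µM, 0.22 at 50 µM and 0.29 at 100 µM, and that of the 8 fatty acid enzymes was -0.11, -0.13 and -0.095 at the same doses, with the median of all genes between -0.0084 and -0.00027. The signs of both class medians held under both other scalings, under which the median of all genes lay between -0.00255 and 0.0418. The 3 doses share 1 set of vehicle libraries. Members and classes were chosen with earlier results of these data known, so counts above these shares are not an independent result.

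The sterol enzymes summed to 1846.4, 1804.4 and 1794.4 CPM in vehicle libraries, 1920.6, 2171.0 and 1984.5 CPM at 1 µM, 2010.5, 2129.6 and 2236.5 CPM at 50 µM and 2198.7, 2199.5 and 2290.4 CPM at 100 µM. Every exposed library lay above every vehicle library in this sum. The fatty acid enzymes summed to 4268.1, 4184.3 and 4009.6 CPM in vehicle libraries, 4119.4, 3560.7 and 3977.0 CPM at 1 µM, 3818.0, 3963.6 and 3784.6 CPM at 50 µM and 4136.6, 4052.9 and 3759.5 CPM at 100 µM. That sum overlapped between vehicle and BPS libraries at 1 and 100 µM but not at 50 µM.

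Hmgcs1, which makes HMG-CoA at the head of the mevalonate route, measured 371, 371 and 379 CPM with the vehicle, 418, 467 and 440.2 CPM at 1 µM, 429, 470.1 and 483 CPM at 50 µM and 508, 486 and 501 CPM at 100 µM. The libraries of each dose lay above all vehicle libraries. Its log2 difference was 0.24 ± 0.054 (SE, adjusted p = 0.00946) at 1 µM, 0.30 ± 0.054 (SE, adjusted p = 0.000524) at 50 µM and 0.41 ± 0.054 (SE, adjusted p = 2.2e-05) at 100 µM, a fold of 1.18, 1.23 and 1.33. Sqle, squalene epoxidase and a slow step of the route, measured 150.3, 142 and 145 CPM with the vehicle, 167, 163 and 168.5 CPM at 1 µM, 170.2, 178 and 185 CPM at 50 µM and 183, 187 and 193.5 CPM at 100 µM. Its groups with BPS likewise did not overlap the vehicle group, and the difference reached 0.19 ± 0.047 (SE, adjusted p = 0.0162) at 1 µM, 0.28 ± 0.047 (SE, adjusted p = 0.000235) at 50 µM and 0.36 ± 0.047 (SE, adjusted p = 1.9e-05) at 100 µM.

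Msmo1, the methylsterol oxidase, had the largest difference of the 32 genes at each dose, with 162, 148 and 152.5 CPM with the vehicle, 169, 220.2 and 187 CPM at 1 µM, 183, 201.5 and 206 CPM at 50 µM and 212, 203 and 220.2 CPM at 100 µM. Replicate 2 at 1 µM stood highest there. The log2 difference was 0.31 ± 0.072 (SE, adjusted p = 0.0117) at 1 µM, 0.35 ± 0.072 (SE, adjusted p = 0.0016) at 50 µM and 0.46 ± 0.072 (SE, adjusted p = 0.000142) at 100 µM, the last a fold of 1.37. Nsdhl, the dehydrogenase that acts after it in C4 demethylation, measured 39.1, 37.6 and 35.8 CPM with the vehicle, 42.6, 46.1 and 40.6 CPM at 1 µM, 43.6, 45.6 and 47.5 CPM at 50 µM and 44.9, 47.6 and 48.6 CPM at 100 µM. It too was called at each dose, at 0.20 ± 0.059 (SE, adjusted p = 0.0409) at 1 µM, 0.28 ± 0.059 (SE, adjusted p = 0.00182) at 50 µM and 0.33 ± 0.059 (SE, adjusted p = 0.000456) at 100 µM.

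Tm7sf2, a sterol C14 reductase, was among the 4 sterol enzymes with the smallest adjusted p at 50 µM, with 32.9, 30.3 and 29.8 CPM with the vehicle, 33.4, 36.1 and 34.5 CPM at 1 µM, 39.9, 37.2 and 41.1 CPM at 50 µM and 36.3, 42.8 and 39.04 CPM at 100 µM. The difference was 0.35 ± 0.065 (SE, adjusted p = 0.000746) at 50 µM, and 0.16 ± 0.065 (SE, adjusted p = 0.126) at 1 µM did not pass. Its exons overlap Vps51 on the same strand, and reads of the pair cannot be told apart here. Fdft1, squalene synthase, measured 207.5, 208 and 205 CPM with the vehicle, 220.4, 256 and 225 CPM at 1 µM, 241.5, 246 and 273 CPM at 50 µM and 253, 259.6 and 279 CPM at 100 µM. It differed by 0.29 ± 0.06 (SE, adjusted p = 0.0016) at 50 µM and 0.35 ± 0.06 (SE, adjusted p = 0.000303) at 100 µM, against 0.17 ± 0.06 (SE, adjusted p = 0.0815) at 1 µM, and its exons overlap Ctsb on the other strand.

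The other sterol enzymes called higher were Lss (0.28 at 50 µM and 0.36 at 100 µM), Cyp51 (0.23 and 0.30), Pmvk (0.25 and 0.29), Sc5d (0.18 and 0.30) and, at 100 µM alone, Fdps (0.20, adjusted p = 0.0248). Fdps kept its call in 1 of 6 fits that left out a library (without 100 µM replicate 1), with adjusted p between 0.0537 and 0.123 in the others. At 50 µM, leaving out replicate 3 of that dose ended the calls of Pmvk (adjusted p = 0.113), Cyp51 (0.0607) and Sc5d (0.0743), and Sc5d also lost its call without 50 µM replicate 2 (0.0641) or vehicle replicate 1 (0.0689) or 3 (0.0637). Exons of Cyp51 overlap Akap9 on the other strand, and those of Fdps overlap Gm43738 on the same strand. These enzymes span the route: Pmvk phosphorylates phosphomevalonate, Fdps makes farnesyl diphosphate, Lss closes the sterol rings, Cyp51 removes the C14 methyl group and Sc5d desaturates the ring. The 7 sterol enzymes called at no dose were Acat2, Mvk and Mvd of the mevalonate part, the isomerases Idi1 and Ebp, and the reductases Hsd17b7 and Dhcr7, and their values ranged from -0.10 (Ebp at 100 µM) to 0.21 (Hsd17b7 at 50 µM). Idi1, the isopentenyl isomerase, was the 1 sterol enzyme whose mean lay below the vehicle at all 3 doses. Exons of Hmgcs1, Idi1, Lss, Scap and Elovl6 also overlap annotated genes on the other strand. Those of Srebf1 and Scd2 each overlap a microRNA on the same strand.

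**Figure D1:**
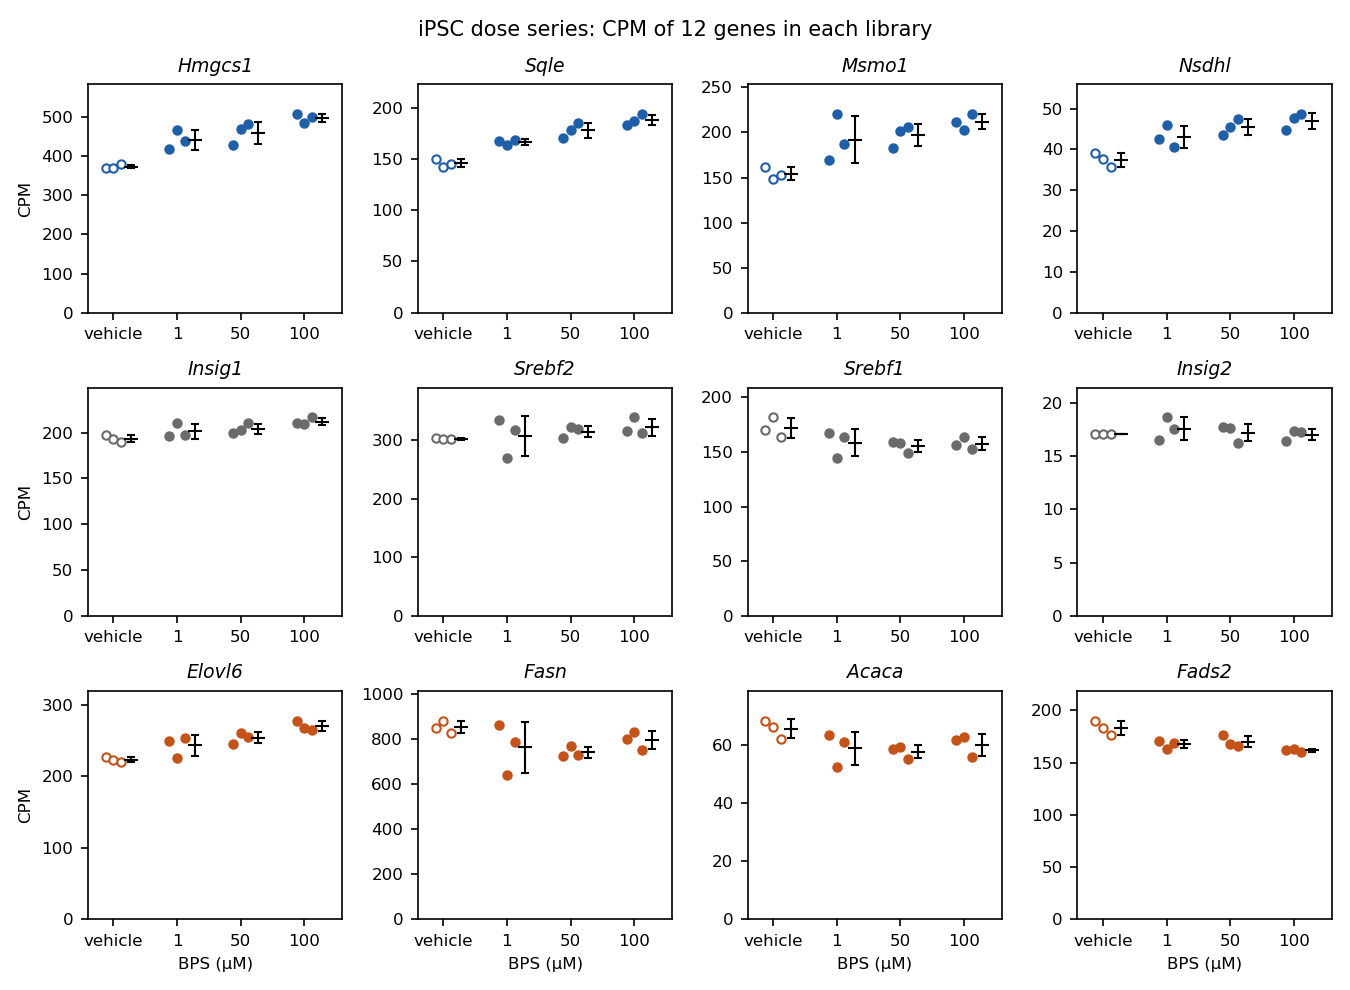
CPM of 12 genes in each library of the iPSC dose series (y axis, from 0), by BPS dose in µM (x axis, vehicle at the left); open points are vehicle libraries, filled points BPS libraries, and the bar beside each group is the mean ± SD (n = 3). Hmgcs1, Sqle, Msmo1, Nsdhl and Elovl6 have group means that climb with dose, whereas Fasn, Acaca and Fads2 have group means under that of the vehicle at each dose, and Insig2 stays between 16.3 and 18.6 CPM.

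Of the regulators, 1 of 6 was called in the dose series. Insig1 measured 198, 192.5 and 190.1 CPM with the vehicle, 196, 211 and 197 CPM at 1 µM, 199, 203 and 210.4 CPM at 50 µM and 210.1, 209 and 216.5 CPM at 100 µM, and it was called higher at 100 µM, at 0.13 ± 0.046 (SE, adjusted p = 0.0371). At 1 and 50 µM its differences were 0.057 (adjusted p = 0.484) and 0.078 (adjusted p = 0.221). Leaving out any 1 of the 6 libraries of the 100 µM comparison raised its adjusted p above the threshold, to between 0.06 and 0.121. Srebf2 measured 303, 301 and 301 CPM with the vehicle, 335, 269.5 and 318 CPM at 1 µM, 303, 322 and 318 CPM at 50 µM and 315, 338.5 and 312 CPM at 100 µM, with differences of 0.019 (adjusted p = 0.889) at 1 µM, 0.058 (adjusted p = 0.537) at 50 µM and 0.091 (adjusted p = 0.29) at 100 µM.

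Srebf1 measured 170.2, 182 and 164 CPM with the vehicle, 168, 144 and 164 CPM at 1 µM, 159, 158 and 149 CPM at 50 µM and 156, 164 and 152.5 CPM at 100 µM. Its differences were -0.12 (adjusted p = 0.221), -0.14 (adjusted p = 0.0731) and -0.13 (adjusted p = 0.109) at 1, 50 and 100 µM. All 3 values were below 0 and none passed; its exons overlap Rai1 on the other strand. Insig2 measured 17.1, 17.1 and 17.1 CPM with the vehicle, 16.5, 18.6 and 17.6 CPM at 1 µM, 17.8, 17.6 and 16.3 CPM at 50 µM and 16.5, 17.4 and 17.2 CPM at 100 µM, and differed by at most 0.039 at any dose (adjusted p between 0.76 and 0.948).

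Among fatty acid enzymes, Elovl6 was the 1 called higher. It measured 227, 222.5 and 219.8 CPM with the vehicle, 249.5, 226 and 253 CPM at 1 µM, 245.5, 261 and 255 CPM at 50 µM and 278, 268 and 264 CPM at 100 µM, and the difference was 0.18 ± 0.05 (SE, adjusted p = 0.0103) at 50 µM and 0.28 ± 0.05 (SE, adjusted p = 0.000493) at 100 µM, a fold of 1.21 at the highest dose, with 0.12 ± 0.05 (SE, adjusted p = 0.137) at 1 µM. Exposed and vehicle libraries did not overlap at 50 and 100 µM. Fads2, the delta-6 desaturase, measured 190.1, 183 and 176 CPM with the vehicle, 170.4, 163 and 169 CPM at 1 µM, 176, 168 and 166 CPM at 50 µM and 162, 163 and 160.0 CPM at 100 µM. It was called lower at 100 µM, at -0.18 ± 0.046 (SE, adjusted p = 0.00634), and at all 3 doses its exposed libraries lay below all vehicle libraries. Fads2 and Fads1 are paralogs, as are Scd1 and Scd2 and Acat2 and Acat3, so shared reads may be split between them.

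Acaca, acetyl-CoA carboxylase, measured 68.2, 66.2 and 61.8 CPM with the vehicle, 63.1, 52.2 and 60.8 CPM at 1 µM, 58.5, 59.2 and 55.1 CPM at 50 µM and 61.7, 62.5 and 55.7 CPM at 100 µM, and Acly, ATP citrate lyase, measured 727, 691 and 665 CPM with the vehicle, 668, 632.5 and 637 CPM at 1 µM, 649, 635 and 599.5 CPM at 50 µM and 647, 649.7 and 617 CPM at 100 µM. Both were called lower at 50 µM alone, Acaca at -0.18 ± 0.067 (SE, adjusted p = 0.0494) and Acly at -0.15 ± 0.053 (SE, adjusted p = 0.0475). Each lay at the edge of the threshold: Acaca kept its call in 1 of 6 fits that left out a library (the fit without vehicle replicate 3, adjusted p = 0.0397), and Acly in 2 (without vehicle replicate 3, 0.0421, and without 50 µM replicate 1, 0.037). Fasn measured 848, 879.8 and 825.5 CPM with the vehicle, 859.6, 639 and 787 CPM at 1 µM, 722, 769 and 729 CPM at 50 µM and 801, 831 and 751 CPM at 100 µM and was called at no dose (at 50 µM -0.20, adjusted p = 0.0613). Means of 6 fatty acid enzymes (Fasn, Scd1, Scd2, Acaca, Acly and Fads2) lay below the vehicle at all 3 doses.

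Libraries without overlap with the vehicle numbered 9 of 18 sterol enzymes higher and 0 lower at 1 µM, 13 and 0 at 50 µM, and 15 and 1 at 100 µM. Across all genes, 27.5%, 43.9% and 49.2% did not overlap in either direction at these doses. Group means of 11 sterol enzymes were ordered vehicle, 1, 50, 100 µM from lowest to highest (Hmgcs1, Pmvk, Mvd, Fdps, Fdft1, Sqle, Lss, Cyp51, Msmo1, Nsdhl and Sc5d), as did those of Insig1, Srebf2 and Elovl6. Between doses the test called 0 of 32 members: 0.00612% of all genes differed between 50 and 1 µM, 0.44% between 100 and 1 µM and 0.055% between 100 and 50 µM. At an unadjusted p under 0.05 the members numbered 2, 11 and 2 in these pairs (limma), and limma-voom on recovered reads called 0 in each. Of all 16349 genes tested, 1370, 2773 and 1472 were under that p in the same pairs. The median sterol enzyme differed by 0.077 between 50 and 1 µM, by 0.15 between 100 and 1 µM and by 0.052 between 100 and 50 µM on the log2 scale.

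Replicates of the 1 µM iPSCs lay apart. Replicate 2 was the highest of the 3 libraries for 15 of 18 sterol enzymes and the lowest for 8 of 8 fatty acid enzymes. Replicate 1 was the lowest for 12 sterol enzymes and the highest for 7 fatty acid enzymes. Between replicate pairs the mean chi-square per gene of read counts was 19.2 to 25.5 at 1 µM, against 3.41 to 7.56 in the other dose groups. Without replicate 2 the 1 µM comparison again called 4 members higher, and the comparison of 100 with 1 µM called 3. Without vehicle replicate 2 the 1 µM comparison called 1, Hmgcs1. For these fits the share of all genes called is not given here, so the counts cannot be set against a background. Over the 6 libraries left out in turn at 1 µM, Msmo1 kept its call in 5 fits, Sqle in 4 and Nsdhl in 1. Libraries held 34409671 to 36943198 reads at 1 µM, 28111640 to 31079851 at 50 µM and 33363935 to 44524376 at 100 µM, against 27782761 to 30991751 with the vehicle. The 6 PGCLC markers summed to 141 to 152 CPM at 1 µM, 136 to 142 CPM at 50 µM and 137 to 140 CPM at 100 µM, against 178 to 180 CPM with the vehicle, while the pluripotency markers (3600 to 3750, 3570 to 3670 and 3570 to 3600 CPM against 3610 to 3690 CPM) overlapped at 1 and 50 µM and lay below the vehicle at 100 µM. No marker of either list was at 0 reads. The 3 germ cell markers summed to 13.4 to 16.9, 13.7 to 15.8 and 14.2 to 14.3 CPM at 1, 50 and 100 µM, against 10.6 CPM in each vehicle library. The 3 leukocyte markers summed to 17.8 to 18.6, 20.4 to 22.7 and 21.1 to 21.6 CPM, against 13.7 to 16.2 CPM, nearly all of it Cd68, with Adgre1 at 0 reads. Of 10 marker lists, 4 did not overlap the vehicle at 1 µM, 6 at 50 µM and 9 at 100 µM, and the part of these differences in the results was not tested.

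Of 41 further genes of the pathway, 40 were tested (Thrsp was not). In the dose series 3 of 40 were called higher and 4 lower at 1 µM, 6 and 5 at 50 µM, and 6 and 11 at 100 µM. Of all genes, 5.61% were called higher and 2.94% lower at 1 µM, 13.1% and 13.3% at 50 µM, and 15.3% and 15.4% at 100 µM. Both counts at 50 µM and the higher count at 100 µM lay near these shares. Abcg1, which exports cholesterol, measured 31.6, 32.2 and 28.9 CPM with the vehicle, 25.8, 22.4 and 23.4 CPM at 1 µM, 21.7, 19.1 and 17.6 CPM at 50 µM and 20.98, 18.3 and 16.1 CPM at 100 µM. It fell at every dose, with differences of -0.38 ± 0.09 (SE, adjusted p = 0.0136), -0.67 ± 0.09 (SE, adjusted p = 3.39e-05) and -0.75 ± 0.09 (SE, adjusted p = 9.48e-06), and the dose groups did not overlap the vehicle group. Me1, the malic enzyme that supplies NADPH to lipid synthesis, measured 44.9, 42.5 and 43.7 CPM with the vehicle, 49.9, 54.7 and 54.2 CPM at 1 µM, 53.5, 55.9 and 56.2 CPM at 50 µM and 54.8, 55.5 and 53.9 CPM at 100 µM and was called higher at each dose (0.27, 0.34 and 0.32). Mbtps2, the site-2 protease that frees SREBPs, measured 42.8, 40.7 and 37.6 CPM with the vehicle, 32.6, 33.8 and 34.4 CPM at 1 µM, 30.7, 30.1 and 25.8 CPM at 50 µM and 32.97, 30.2 and 27.7 CPM at 100 µM, and differed by -0.49 ± 0.074 (SE, adjusted p = 0.000115) at 50 µM. Scarb1, a lipoprotein receptor, differed by -0.20 (adjusted p = 0.0142) at 1 µM, and Elovl1, an elongase of very long chains, by 0.42 (adjusted p = 0.00023) at 100 µM.

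In directly exposed PGCLCs, 8 of the 11 members called higher were sterol enzymes, which make up 18 of the 32 members. Insig1, Srebf1 and Elovl6 were lower with BPS. At 1 µM BPS, 8 of 18 sterol enzymes were called higher and 0 lower, 1 of 6 regulators higher and 2 lower, and 2 of 8 fatty acid enzymes higher and 1 lower. Of 16342 genes tested, 15.4% were called higher and 11.3% lower. The 11 of 32 members called higher lay above that share, and the 3 called lower lay near it. With members chosen knowing earlier results of these data, the excess of higher calls is not an independent result. The median log2 difference was 0.10 for sterol enzymes and 0.019 for fatty acid enzymes, against 0.016 for all genes, and the fatty acid median turned to -0.017 under upper-quartile scaling. Exposed libraries lay above all vehicle libraries for 12 members and below for 3, where 41.3% of all genes did not overlap.

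Cyp51 measured 71.7, 80.8 and 73.5 CPM in exposed PGCLCs, against 63.1, 67.3 and 66.3 CPM in vehicle PGCLCs, a difference of 0.20 ± 0.045 (SE, adjusted p = 0.00461). Mvd, which makes isopentenyl diphosphate, measured 29.6, 28.4 and 28.1 CPM in exposed PGCLCs, against 25.9, 25.3 and 25.7 CPM in vehicle PGCLCs, 0.16 ± 0.047 (SE, adjusted p = 0.0178). Hmgcs1 measured 203, 226.5 and 213 CPM in exposed PGCLCs, against 197, 195 and 199 CPM in vehicle PGCLCs, 0.12 ± 0.037 (SE, adjusted p = 0.026). For these 3 genes the exposed libraries all lay above the vehicle ones. Fdft1 likewise measured 94.5, 97.5 and 95.9 CPM in exposed PGCLCs, against 85.9, 92.4 and 88.1 CPM in vehicle PGCLCs, without overlap, 0.11 ± 0.036 (SE, adjusted p = 0.0296). The other sterol enzymes called were Sqle (0.14), Msmo1 (0.10), Fdps (0.13) and Dhcr7 (0.17), the reductase of the last step; libraries of Sqle and Dhcr7 overlapped. The remaining 10 ranged from -0.063 for Tm7sf2 to 0.11 for Sc5d.

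Insig1, which retains SREBPs and is itself induced by them, measured 43.98, 42.7 and 45.8 CPM in exposed PGCLCs, against 49.4, 49.1 and 49.1 CPM in vehicle PGCLCs, and fell by 0.16 ± 0.041 (SE, adjusted p = 0.0101). Srebf1 also fell, with 88.4, 81.5 and 85.9 CPM in exposed PGCLCs, against 96.2, 90.7 and 95.02 CPM in vehicle PGCLCs, -0.14 ± 0.038 (SE, adjusted p = 0.014). Insig2, by contrast, rose, with 17.6, 16.5 and 16.01 CPM in exposed PGCLCs, against 14.5, 14.9 and 13.8 CPM in vehicle PGCLCs, 0.22 ± 0.063 (SE, adjusted p = 0.0188). None of these 3 overlapped between groups. Srebf2 measured 185, 202 and 196 CPM in exposed PGCLCs, against 192, 198 and 191 CPM in vehicle PGCLCs, 0.0041 (adjusted p = 0.946), with overlapping libraries. Elovl6 had the smallest adjusted p of the 32 genes, with 203, 207 and 200.1 CPM in exposed PGCLCs, against 222, 231 and 229 CPM in vehicle PGCLCs, -0.16 ± 0.03 (SE, adjusted p = 0.001), a fold of 0.894. The paralogs Fads1 and Fads2, which insert double bonds into polyunsaturated fatty acids, were higher: Fads1 measured 81.2, 86.9 and 84.04 CPM in exposed PGCLCs, against 76.9, 79.9 and 77.2 CPM in vehicle PGCLCs, 0.11 ± 0.037 (SE, adjusted p = 0.0417). Fads2 measured 60.8, 69.1 and 65.4 CPM in exposed PGCLCs, against 58.9, 60.1 and 59.9 CPM in vehicle PGCLCs, 0.12 ± 0.044 (SE, adjusted p = 0.0494).

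The number of higher calls in PGCLCs moved with the libraries used. Leaving 1 out gave 12 members called higher without BPS replicate 1, 4 without BPS replicate 2, 3 without BPS replicate 3, 3 without vehicle replicate 1, 5 without vehicle replicate 2 and 1 without vehicle replicate 3, and no filter on low values gave 3. Cyp51, Insig1 and Elovl6 kept their calls in all 6 such fits. Of the other sterol enzymes called, Mvd kept its call in 4, Sqle in 3, Fdft1 and Dhcr7 in 2, and Hmgcs1, Fdps and Msmo1 in 1. Shares of all genes called in these fits are not given here, so the member counts cannot be set against a background. In the exposed PGCLCs the pluripotency markers summed to 1810 to 2020 CPM, against 2300 to 2360 CPM in vehicle PGCLCs, the 6 PGCLC markers to 220 to 254 CPM, against 262 to 271 CPM, and 3 fibroblast markers to 70.2 to 74.9 CPM, against 62.6 to 64.3 CPM, and the 3 germ cell markers to 11.2 to 13.4 CPM, against 15.0 to 16.1 CPM, with no marker of these lists at 0 reads. Of 10 marker lists 9 did not overlap. Vehicle replicate 1 held 9347.5 CPM of ribosomal RNA-type genes (Rn28s1 and AY036118, summed after the data were seen), against at most 2550.1 CPM in the other 5 libraries. Its read counts differed from those of vehicle replicates 2 and 3 by a mean chi-square per gene of 40.9 and 38.2. Between vehicle replicates 2 and 3 it was 2.02. The part of these differences in the PGCLC values was not tested.

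Of the 40 further pathway genes, 10 were called higher and 6 lower in exposed PGCLCs, where 15.4% of all genes were called higher and 11.3% lower. Lpin1, a phosphatidate phosphatase, measured 46.1, 45.1 and 44.9 CPM in exposed PGCLCs, against 54.3, 54.2 and 55.1 CPM in vehicle PGCLCs, -0.26 ± 0.037 (SE, adjusted p = 0.000124). Abca1, a cholesterol exporter, measured 13.7, 14.5 and 14.8 CPM in exposed PGCLCs, against 18.4, 20.1 and 18.3 CPM in vehicle PGCLCs, -0.40 ± 0.062 (SE, adjusted p = 0.000289). Faf2, which takes part in removing proteins from the endoplasmic reticulum, measured 87.2, 85.2 and 89.05 CPM in exposed PGCLCs, against 74.1, 78.4 and 75.5 CPM in vehicle PGCLCs, 0.20 ± 0.036 (SE, adjusted p = 0.000942). Exposed and vehicle libraries were apart for each of these genes.

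Whether the 1 µM response differed between PGCLCs and iPSCs was tested as the difference of the differences. The PGCLCs were exposed in plates, given a chase of 8 h and sorted, while the iPSCs had a chase of 24 h. Cell type, procedure and experiment therefore cannot be told apart here. The test called 13.4% of all genes and 3 of 32 members, a count under that share. Insig1 was called (-0.21 ± 0.057 SE, adjusted p = 0.0228), as was Elovl6 (-0.28 ± 0.06 SE, adjusted p = 0.00659), both with a lower value in PGCLCs. Fads2 was called in the other direction (0.25 ± 0.065 SE, adjusted p = 0.0192). None of the 18 sterol enzymes was called in this test, with values from -0.23 to 0.18. Under an unadjusted p of 0.05 (limma) were 7 of 32 members and 4853 of 17366 genes. Elovl6 kept the call in all 12 fits that left out 1 library. Fads2 lost it without iPSC vehicle replicate 1 (adjusted p = 0.0552) or PGCLC BPS replicate 2 (0.0534). Insig1 lost it without iPSC vehicle replicate 2 (0.0557) or 3 (0.0513), PGCLC vehicle replicate 1 (0.0528) or 3 (0.0505) or PGCLC BPS replicate 2 (0.0643). Hmgcs1, Msmo1 and Sqle were called higher at 1 µM in both cell types, but in PGCLCs Hmgcs1 and Msmo1 kept that call in 1 of 6 fits that left out a library and Sqle in 3 of 6.

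**Figure D2:**
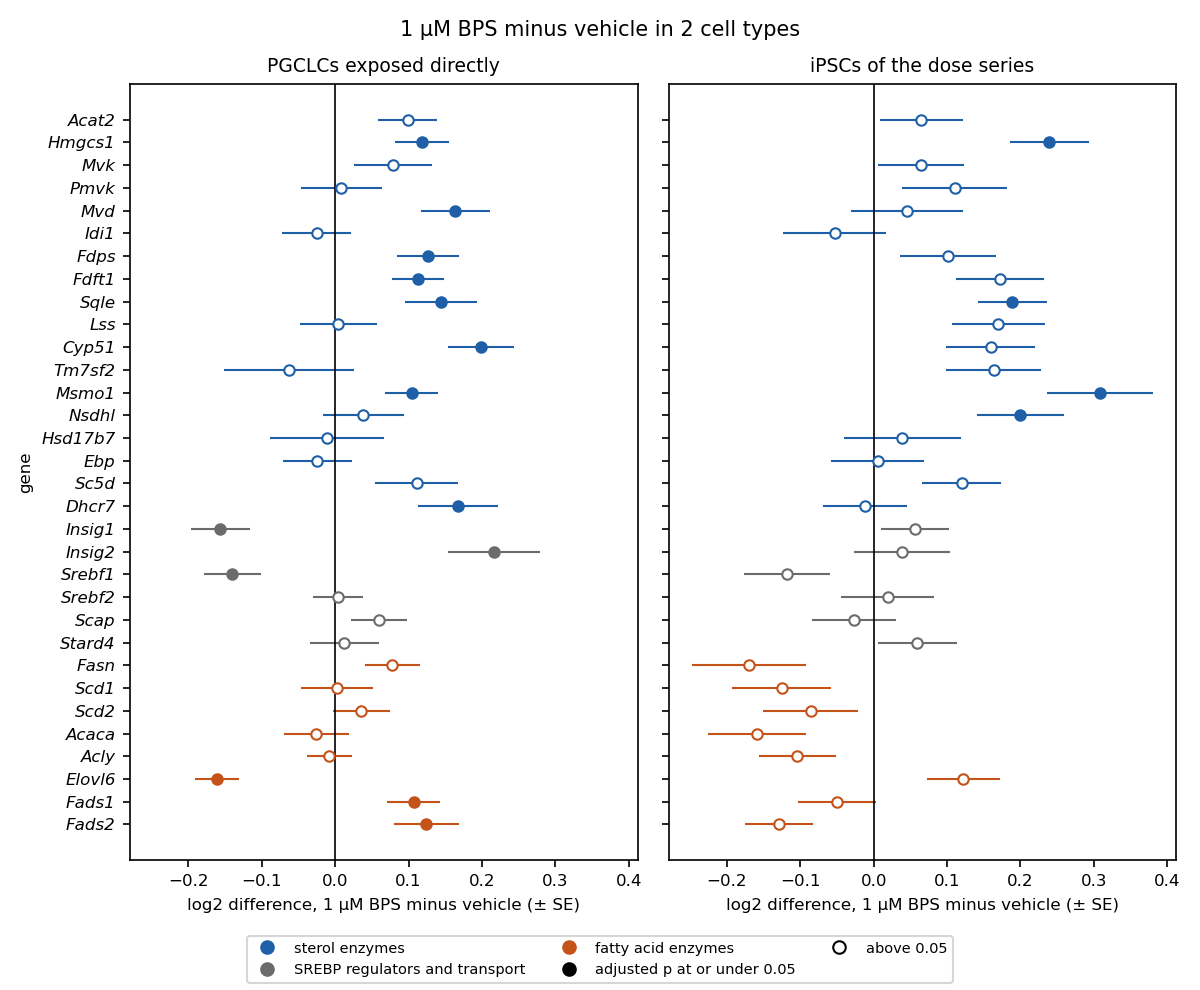
Log2 difference of 1 µM BPS minus vehicle (x axis, ± SE from limma) for the 32 genes (y axis) in PGCLCs exposed directly (left) and iPSCs of the dose series (right); colors mark the 3 classes and filled points an adjusted p of at most 0.05. Elovl6 lies at -0.16 in PGCLCs and 0.12 in iPSCs, Fads2 at 0.12 and -0.13, and Insig1 at -0.16 and 0.057, while Hmgcs1, Sqle and Msmo1 are filled and above 0 in both panels.

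In Sertoli cells the fatty acid enzymes, not the sterol enzymes, held the called genes. Of 32 members 0 were called higher and 3 lower, where 3.76% of 15648 genes were called higher and 1.48% lower. Acaca measured 114, 115 and 122 CPM in exposed Sertoli cells, against 132, 134 and 131 CPM in vehicle Sertoli cells, and fell by 0.18 ± 0.035 (SE, adjusted p = 0.00932). Scd1, which makes oleate, measured 294, 265 and 297 CPM in exposed Sertoli cells, against 322, 304 and 347 CPM in vehicle Sertoli cells, -0.18 ± 0.046 (SE, adjusted p = 0.0265), and Fasn measured 883, 857 and 903 CPM in exposed Sertoli cells, against 948, 941 and 988 CPM in vehicle Sertoli cells, -0.12 ± 0.032 (SE, adjusted p = 0.0335). The exposed libraries lay below all vehicle ones for each of the 3. All 8 fatty acid enzymes had values below 0, with a median of -0.11, and the 18 sterol enzymes were split 9 above and 9 below 0, from -0.19 to 0.082.

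None of the sterol enzymes or regulators passed. Srebf1 measured 159.9, 160.2 and 167 CPM in exposed Sertoli cells, against 166, 180.3 and 181 CPM in vehicle Sertoli cells, -0.11 (adjusted p = 0.0718). Srebf2 measured 225, 228.5 and 229 CPM in exposed Sertoli cells, against 232, 239.6 and 248 CPM in vehicle Sertoli cells, -0.074 (adjusted p = 0.187). The exposed libraries lay below the vehicle ones for Srebf2 and overlapped them for Srebf1. Insig1 measured 126, 113 and 119 CPM in exposed Sertoli cells, against 127, 114 and 115 CPM in vehicle Sertoli cells (0.0059, adjusted p = 0.96) and Insig2 70.7, 70.4 and 70.9 CPM in exposed Sertoli cells, against 73.7, 72.5 and 66.4 CPM in vehicle Sertoli cells (-0.0029, adjusted p = 0.978). Leaving out libraries gave 0 members called lower without BPS replicate 1, 1 without BPS replicate 2, vehicle replicate 2 or vehicle replicate 3, and 4 without BPS replicate 3 or vehicle replicate 1. No filter on low values gave 0. For these fits, too, the share of all genes called is not given here. Fibroblast markers summed to 597 to 642 CPM in exposed cells, against 693 to 739 CPM in vehicle cells, steroidogenic markers to 178 to 182 CPM, against 193 to 200 CPM, and the 5 granulosa markers to 201 to 253 CPM, against 248 to 290 CPM, and the 3 germ cell markers to 9.49 to 12.6 CPM, against 14.9 to 16.7 CPM, with none at 0 reads. The granulosa sums overlapped and the other 3 did not. Their part in the lower fatty acid enzymes was not tested.

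Of the 40 further genes 0 were called higher and 4 lower in Sertoli cells, where 3.76% of all genes were called higher and 1.48% lower. Abca1 measured 519.9, 512 and 520.1 CPM in exposed Sertoli cells, against 576, 599 and 626 CPM in vehicle Sertoli cells, -0.21 ± 0.033 (SE, adjusted p = 0.00329), and Abcg1 measured 5.27, 6.69 and 6.92 CPM in exposed Sertoli cells, against 9.69, 9.50 and 8.05 CPM in vehicle Sertoli cells, -0.53 ± 0.11 (SE, adjusted p = 0.0145). Both are cholesterol exporters, and neither overlapped between groups. Soat1, which esterifies cholesterol for storage, measured 604, 583 and 590.4 CPM in exposed Sertoli cells, against 616, 670.3 and 729.7 CPM in vehicle Sertoli cells, -0.18 ± 0.044 (SE, adjusted p = 0.025).

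In granulosa cells 0 of 32 members were called, where 2.6% of 15712 genes were called. Under an unadjusted p of 0.05 (limma) were 4 members and 2412 genes, and limma-voom also called 0 members. Values of 17 of 18 sterol enzymes lay above 0, with a median of 0.057, and the median of the fatty acid enzymes was -0.038, against 0.022 for all genes. Srebf1 measured 97.8, 94.1 and 91.9 CPM in exposed granulosa cells, against 95.4, 91.5 and 90.2 CPM in vehicle granulosa cells (0.034, adjusted p = 0.692), and Srebf2 127, 127 and 122 CPM in exposed granulosa cells, against 117, 119.8 and 120.2 CPM in vehicle granulosa cells (0.074, adjusted p = 0.221). Insig1 measured 31.4, 30.3 and 29.8 CPM in exposed granulosa cells, against 28.1, 31.9 and 27.9 CPM in vehicle granulosa cells (0.061, adjusted p = 0.633) and Insig2 47.4, 47.95 and 49.2 CPM in exposed granulosa cells, against 47.3, 45.9 and 45.4 CPM in vehicle granulosa cells (0.062, adjusted p = 0.464). Among the further genes 1 of 40 was called, Me1, with 742, 710.1 and 740.4 CPM in exposed granulosa cells, against 670.0, 687 and 672 CPM in vehicle granulosa cells, 0.11 ± 0.025 (SE, adjusted p = 0.021). The exposed granulosa cells also held 2210 to 2330 CPM of smooth muscle markers, against 1990 to 2050 CPM in vehicle cells. Read counts of vehicle replicate 2 differed from those of vehicle replicates 1 and 3 by a mean chi-square per gene of 17.9 and 25.1. Between vehicle replicates 1 and 3 it was 3.6. Ribosomal RNA-type genes summed to 4450.7, 636.4 and 6042.0 CPM in vehicle libraries, against 898, 570.8 and 401 CPM in exposed ones. The part of these differences was not tested.

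In iPSCs of the propagation experiment, exposed to the same 1 µM dose, 0 of 32 members and 0.0128% of 15572 genes were called (2 genes). Under an unadjusted p of 0.05 (limma) were 3 members and 1744 genes, and limma-voom called 0 members. The sterol enzymes had a median of -0.008 (0.027 under upper-quartile scaling), and all 8 fatty acid enzymes had values below 0, from -0.28 to -0.089. Replicate 2 of the exposed iPSCs stood apart: fatty acid enzymes summed to 4257.2, 3301.3 and 4254.9 CPM in exposed iPSCs, against 4658.7, 4528.5 and 4389.3 CPM in vehicle iPSCs, and Fasn measured 932, 626 and 979.8 CPM in exposed iPSCs, against 1047, 1002 and 974 CPM in vehicle iPSCs. Without that library 7 members were called lower, and each other library left out gave 0. Read counts of replicate 2 differed from those of replicates 1 and 3 by a mean chi-square per gene of 57.8 and 55.7. Between replicates 1 and 3 it was 5.94. The share of all genes called without replicate 2 is not given here, so the 7 cannot be set against a background. The 6 PGCLC markers summed to 171 to 183 CPM in exposed iPSCs, against 198 to 203 CPM in vehicle iPSCs, and 6 of 10 marker lists did not overlap. Srebf2 measured 319, 245 and 329 CPM in exposed iPSCs, against 357.5, 343 and 341 CPM in vehicle iPSCs (-0.23, adjusted p = 0.457) and Srebf1 196, 194 and 205 CPM in exposed iPSCs, against 204, 202 and 203 CPM in vehicle iPSCs (-0.033, adjusted p = 0.771). Insig1 measured 187, 172 and 176 CPM in exposed iPSCs, against 202, 196 and 197 CPM in vehicle iPSCs (-0.15, adjusted p = 0.432) and Insig2 14.6, 14.3 and 14.4 CPM in exposed iPSCs, against 14.8, 15.8 and 15.99 CPM in vehicle iPSCs (-0.10, adjusted p = 0.524). The exposed libraries lay below the vehicle ones for Srebf2, Insig1 and Insig2, and none passed the test. Of the 40 further pathway genes 0 were called in these iPSCs and 0 in the PGCLCs derived from them. In the test of the response against that of the dose-series iPSCs, 0% of genes and 0 members were called. Under an unadjusted p of 0.05 (limma) were 6 members and 693 of 16233 genes.

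In PGCLCs derived from the exposed iPSCs, no member passed the test. Members called numbered 0 of 32, and genes called 0% of 16268 (7 members and 2578 genes at an unadjusted p under 0.05 with limma; limma-voom called 0 members). Values of 16 of 18 sterol enzymes lay below 0, from -0.19 to 0.062 with a median of -0.13. Fdps measured 52.6, 57.5 and 50.03 CPM in PGCLCs from exposed iPSCs, against 59.9, 61.2 and 60.3 CPM in PGCLCs from vehicle iPSCs (-0.18 ± 0.06 SE, adjusted p = 0.24). Insig1 measured 57.4, 61.2 and 55.5 CPM in PGCLCs from exposed iPSCs, against 70.5, 61.04 and 67.8 CPM in PGCLCs from vehicle iPSCs (-0.19, adjusted p = 0.249) and Insig2 15.9, 15.3 and 15.6 CPM in PGCLCs from exposed iPSCs, against 14.3, 15.5 and 17.98 CPM in PGCLCs from vehicle iPSCs (-0.025, adjusted p = 0.913). Srebf1 measured 85.5, 88.02 and 86.98 CPM in PGCLCs from exposed iPSCs, against 85.6, 88.9 and 86.03 CPM in PGCLCs from vehicle iPSCs (-0.00006, adjusted p = 1) and Srebf2 274, 279 and 257.5 CPM in PGCLCs from exposed iPSCs, against 284, 282 and 275 CPM in PGCLCs from vehicle iPSCs (-0.053, adjusted p = 0.559).

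The difference between derived and directly exposed PGCLCs was tested too. The test called 1.97% of genes and 1 of 32 members, a count near that share. The member called was Fdps, at -0.31 ± 0.07 (SE, adjusted p = 0.0416). It kept the call in 2 of 12 fits that left out a library (without derived vehicle replicate 2, adjusted p = 0.0379, and without derived BPS replicate 2, 0.0172); the other 10 gave adjusted p between 0.0562 and 0.115. All 18 sterol enzymes had values below 0 in this comparison, with a median of -0.17. Kind of exposure and experiment cannot be told apart in it. Pluripotency markers summed to 1210 to 1840 CPM in PGCLCs from exposed iPSCs, against 1700 to 2220 CPM in those from vehicle iPSCs, and fibroblast markers to 272 to 439 CPM, against 259 to 382 CPM; both ranges overlapped.

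The 1 µM response was compared between the remaining cell types in the same way, and 0 members were called. Cell type and experiment cannot be told apart in these tests. The share of all genes called was 4.2% for Sertoli cells against iPSCs, 1.37% for granulosa cells against iPSCs and 1.28% for Sertoli against granulosa cells. At an unadjusted p under 0.05 the members numbered 8, 6 and 7 in these tests (limma). Of all genes tested, 3803 of 17888, 2891 of 17922 and 2374 of 16791 were under that p. Over all exposure comparisons 9 of 32 members were never called: Acat2, Ebp, Hsd17b7, Idi1, Mvk, Scap, Scd2, Srebf2 and Stard4. Leaving out replicate 2 of the 1 µM iPSCs called 3 members in the granulosa test (lower) and 3 in the Sertoli test (1 higher and 2 lower). The Sertoli test also called 1 lower without replicate 1 of the 1 µM iPSCs or replicate 3 of the exposed Sertoli cells, and the test of Sertoli against granulosa cells called 2 lower without Sertoli vehicle replicate 1 and 1 without granulosa vehicle replicate 3. Shares of all genes called in these left-out fits are not given here.

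**Figure D3:**
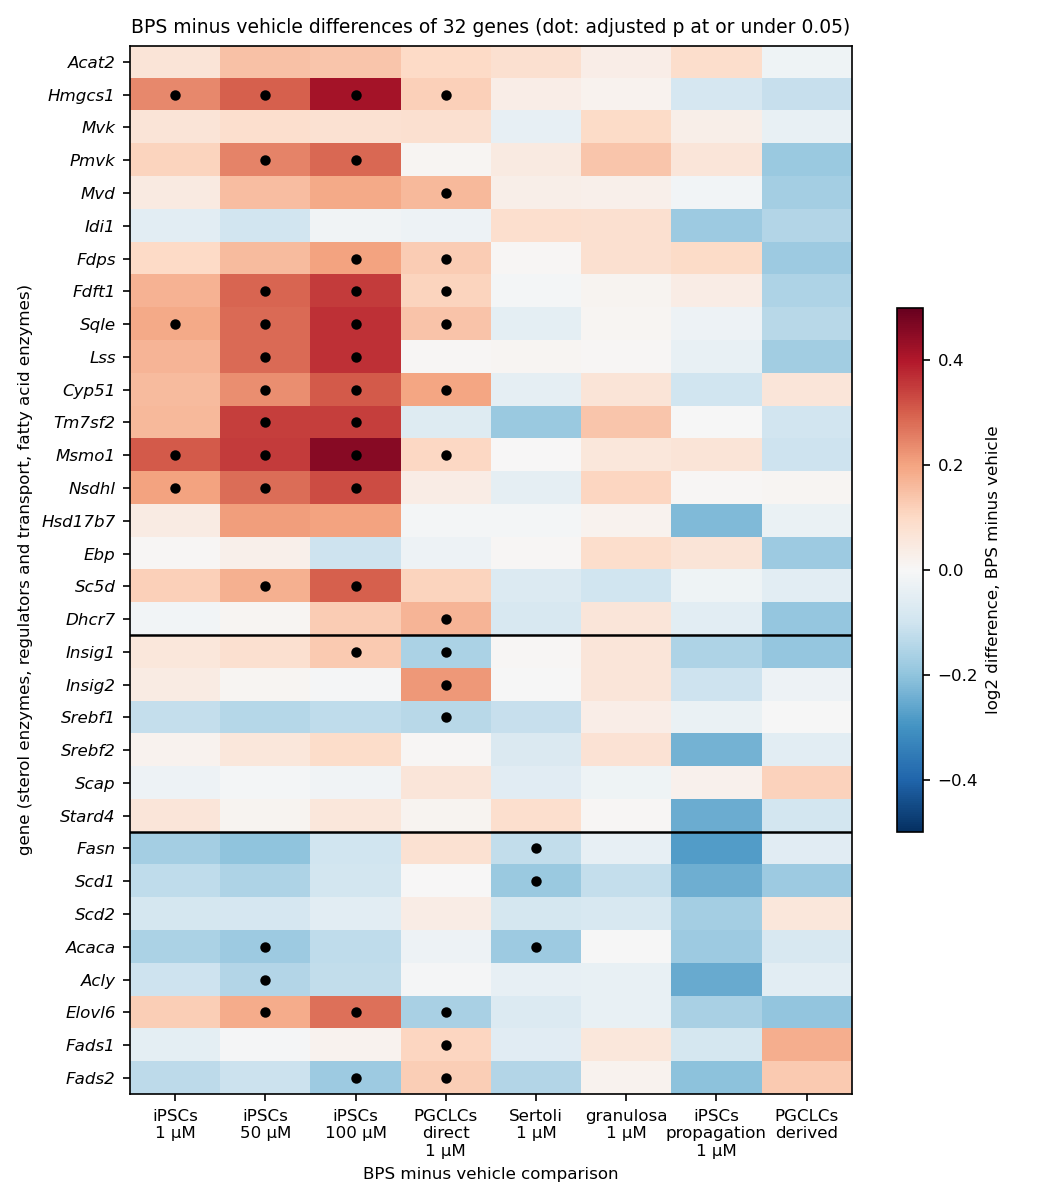
Log2 difference of BPS minus vehicle (color, red higher and blue lower with BPS) for the 32 genes (rows, in the order sterol enzymes, regulators and transport, fatty acid enzymes, split by black lines) in the 8 exposure comparisons (columns); a dot marks an adjusted p of at most 0.05 (limma). Dots mark 10 and 11 of 18 sterol enzymes in iPSCs at 50 and 100 µM and 8 of 18 in directly exposed PGCLCs. In these columns the regulator and fatty acid blocks hold fewer dots. The fatty acid block holds the 3 dots of Sertoli cells, and the granulosa, propagation iPSC and derived PGCLC columns have none.

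Between vehicle groups the differences reached -3.56 on the log2 scale (Scd1, PGCLCs minus iPSCs), where those between BPS and vehicle reached 0.46 (Msmo1 in iPSCs at 100 µM). Except in the propagation pair, cell types came from separate experiments, so cell type and experiment cannot be told apart. Sertoli cells had higher levels than granulosa cells for 30 of 32 members and lower ones for 2, where 33.7% of all genes were higher and 35.9% lower (18 vehicle libraries in 1 fit, limma). The median difference was 1.61 on the log2 scale for sterol enzymes and 1.498 for fatty acid enzymes. Hmgcs1 measured 476, 448.5 and 464.5 CPM in Sertoli cells and 118, 134 and 127 CPM in granulosa cells, a difference of 1.88 ± 0.036 (SE, adjusted p = 8.25e-19), and Acat2, which joins acetyl-CoA units, measured 66.8, 58.96 and 63.03 CPM in Sertoli cells and 13.1, 13.9 and 13.5 CPM in granulosa cells, 2.22 ± 0.043 (SE, adjusted p = 8.11e-19). Fads2 measured 493, 461 and 496 CPM in Sertoli cells and 70.05, 78.1 and 70.4 CPM in granulosa cells, 2.73 ± 0.045 (SE, adjusted p = 1.19e-19). Insig1 measured 127, 114 and 115 CPM in Sertoli cells and 28.1, 31.9 and 27.9 CPM in granulosa cells, 2.02 ± 0.054 (SE, adjusted p = 8.86e-17). The groups were far apart for each. Lower in Sertoli cells were Scap, with 162, 178 and 174 CPM in Sertoli cells and 343, 352 and 337 CPM in granulosa cells (-1.01 ± 0.047 SE, adjusted p = 3.84e-13), and Sc5d (-0.23 ± 0.054 SE, adjusted p = 0.000854).

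Against iPSCs of the dose series, 16 members were higher and 10 lower in Sertoli cells (43.7% of all genes were higher and 45.4% lower). Fads1 led the fatty acid enzymes, with 617, 585 and 652.5 CPM in Sertoli cells and 149, 144 and 140.4 CPM in iPSCs, 2.10 ± 0.044 (SE, adjusted p = 4.32e-19), while Elovl6 was lower, with 49.3, 42.3 and 47.4 CPM in Sertoli cells and 227, 222.5 and 219.8 CPM in iPSCs, -2.27 ± 0.06 (SE, adjusted p = 1.24e-17). Of the sterol enzymes, Sc5d measured 97.5, 93.2 and 98.7 CPM in Sertoli cells and 33.7, 34.8 and 33.5 CPM in iPSCs, 1.504 ± 0.054 (SE, adjusted p = 1.54e-15). Insig2 measured 73.7, 72.5 and 66.4 CPM in Sertoli cells and 17.1, 17.1 and 17.1 CPM in iPSCs, and Insig1 127, 114 and 115 CPM in Sertoli cells and 198, 192.5 and 190.1 CPM in iPSCs, so that the INSIG genes differed in opposite directions (2.05 for Insig2 and -0.71 for Insig1). In this comparison upper-quartile scaling moved the median of all genes to -0.16, and Ebp, called higher in Sertoli cells at 0.11, to -0.0085.

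Granulosa cells had 5 members higher and 27 lower than iPSCs (43% of all genes were higher and 45.4% lower). The 5 were Hsd17b7, Sc5d, Insig2, Scap and Fads1. Acat2 measured 13.1, 13.9 and 13.5 CPM in granulosa cells and 91.7, 88.3 and 90.2 CPM in iPSCs, -2.73 ± 0.043 (SE, adjusted p = 9.33e-21). Scap, the SREBP escort, measured 343, 352 and 337 CPM in granulosa cells and 45.2, 47.1 and 49.4 CPM in iPSCs, 2.86 ± 0.047 (SE, adjusted p = 1.69e-20), and Fasn measured 288, 299.8 and 299.5 CPM in granulosa cells and 848, 879.8 and 825.5 CPM in iPSCs, -1.52 ± 0.032 (SE, adjusted p = 4.52e-19).

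PGCLCs had lower levels than iPSCs in both pairs of vehicle groups. In the directly exposed design 2 members were higher and 29 lower in vehicle PGCLCs than in dose-series iPSCs (37.7% of all genes were higher and 37.3% lower). Scd1 measured 34.5, 35.1 and 34.5 CPM in PGCLCs and 435, 411 and 383.5 CPM in iPSCs, -3.56 ± 0.069 (SE, adjusted p = 2.42e-18), the largest difference of the 32 genes there. Fdps measured 33.05, 33.5 and 32.04 CPM in PGCLCs and 159, 160.4 and 156 CPM in iPSCs, -2.27 ± 0.043 (SE, adjusted p = 1.88e-18), and Insig1 49.4, 49.1 and 49.1 CPM in PGCLCs and 198, 192.5 and 190.1 CPM in iPSCs, -1.98 ± 0.054 (SE, adjusted p = 2.72e-16). Elovl6 measured 222, 231 and 229 CPM in PGCLCs and 227, 222.5 and 219.8 CPM in iPSCs, and did not pass (0.027, adjusted p = 0.694). In the propagation experiment 2 members were higher and 27 lower in vehicle PGCLCs than in vehicle iPSCs (35.9% of all genes were higher and 37.4% lower), with Scd1 at 43.5, 34.9 and 40.8 CPM in PGCLCs and 423, 414 and 397 CPM in iPSCs (-3.38 ± 0.069 SE, adjusted p = 4.56e-18). Scap was higher in PGCLCs in both experiments (0.86 and 0.68). Fibroblast markers summed to 62.6 to 64.3 CPM in vehicle PGCLCs of the direct exposure, against 2.28 to 2.8 CPM in dose-series iPSCs. They summed to 259 to 382 CPM in derived vehicle PGCLCs, against 1.55 to 2.21 CPM in propagation iPSCs. Their part in the member levels was not tested.

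Vehicle groups of the same cell type also differed between experiments. In propagation iPSCs 17 members were higher and 1 (Idi1) lower than in dose-series iPSCs (15.8% of all genes were higher and 12.3% lower), with Mvd at 74.3, 72.2 and 73.4 CPM in propagation iPSCs and 48.6, 48.4 and 44.8 CPM in dose-series iPSCs (0.63 ± 0.062 SE, adjusted p = 6.34e-07). In derived PGCLCs 20 members were higher and 3 lower than in the PGCLCs of the direct exposure (22.7% of all genes were higher and 19.9% lower), with Fdps at 59.9, 61.2 and 60.3 CPM in derived PGCLCs and 33.05, 33.5 and 32.04 CPM in the others (0.88 ± 0.043 SE, adjusted p = 6.46e-11). Of the 18 sterol enzymes, 16 were among the 20. In these comparisons the experiment and the culture cannot be told apart. Fibroblast markers summed to 259 to 382 CPM in derived vehicle PGCLCs, against 62.6 to 64.3 CPM in those of the direct exposure. Smooth muscle markers summed to 34.8 to 77.8 CPM, against 9.61 to 9.84 CPM. The part of these marker differences in the member levels was not tested.

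Levels were also divided by the joined length, in kilobases, of all exons that GENCODE gives for a gene. That length can exceed the length of the transcript in the cells, so the order of genes is approximate. By this measure Scd2 was the highest member in vehicle iPSCs, at 289.7 CPM per kilobase. Acly followed at 131.5, Scd1 at 83.8, Hmgcs1 at 81.4 and Fasn at 77.7. Hsd17b7 was the lowest, at 2.83. In vehicle Sertoli cells the order was Scd2 at 444.8, Fads2 at 146.7, Fads1 at 128.5, Acly at 111.3 and Hmgcs1 at 100.7 CPM per kilobase.

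**Figure D4:**
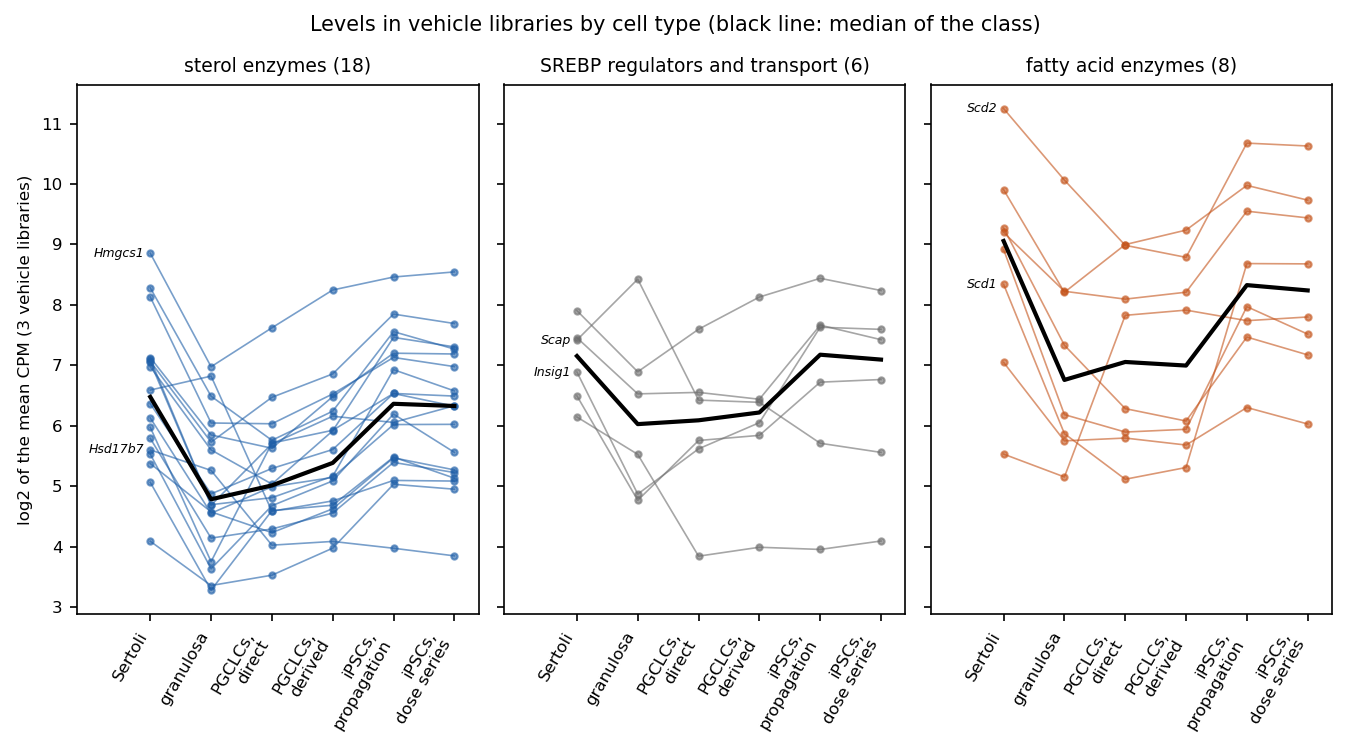
Log2 of the mean CPM over 3 vehicle libraries (y axis) for each member (thin lines, 1 per gene) in 6 vehicle groups (x axis), by class; the black line is the class median, and levels are not divided by gene length. Sertoli cells and both iPSC groups lie above granulosa cells and PGCLCs in the median of all 3 classes, and Scap goes the other way in granulosa cells.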

How the data were processed

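RNA-seq was done on poly(A) RNA from the 42 libraries, and samples were grouped by their labels. Per the study's methods, the authors used FastQC for read quality, Rsubread for alignment to mm10 and counting, and edgeR (TMM, CPM) for normalization. The sources used do not give the annotation, the counting's strand setting or any low-count filter. The deposited values are log2 CPM with an added CPM of 0.0313, and CPM was recovered from them by removing that addition. Whole reads could be recovered for at least 99.9% of values in each library (tolerance 0.05 reads), with depths of 26693847 to 44524376 reads and scaling factors of 0.8775 to 1.108. Columns matched to no sample numbered 0, and 3 replicates per group limit the precision. The 1222 rows with a suffixed symbol stayed in the tests and none is a member.

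Members were taken by symbol. Members, classes, marker lists and the further pathway genes were chosen with earlier results of these data known. The deposited log2 values were tested with limma 3.58.1 (R 4.3.3, trend, two-sided, Benjamini-Hochberg over all genes tested). A gene entered a fit if 3 or more of its libraries reached 0.5 CPM. The dose series was 1 fit of 12 libraries, the other exposures fits of 6, vehicle groups 1 fit of 18 and differences of responses fits of 12. For each comparison, library values are given for up to 4 called members per class with the smallest adjusted p (between vehicle groups, for fewer), and for Srebf1, Srebf2, Insig1 and Insig2; of the further genes, up to 3. Replicates of a group differed by more than sampling noise (mean chi-square per gene of at least 2.02 over genes with 20 or more reads). Alternatives were other added CPM values (0.25 and 1), no filter and a filter at 5 CPM, median-ratio and upper-quartile scaling, a replicate block, a fit of all 42 libraries, fits of 6 libraries per dose, limma-voom on recovered reads, and leaving out each library. The test was also run on simulated data, with means and spread taken from the dose series. Promoter windows came from RefSeq (GRCm38.p6); 25 of 32 members were matched. Figures were drawn with matplotlib 3.10.9. Some genes of the pathway are not reported here.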

Additional observations from a re-analysis of the deposited data

Results flagged for a closer look

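Responses to 1 µM BPS that differed between cell types or between kinds of exposure, by a test of the difference itself, were found for 4 member results: 3 of 32 members between directly exposed PGCLCs and iPSCs, where 13.4% of all genes were called, and 1 of 32 between derived and directly exposed PGCLCs, where 1.97% were. The first count lay under the share of all genes and the second near it, so the members did not stand out as a set. Directly exposed PGCLCs and iPSCs also differed in chase, culture vessel and sorting. Cell type or kind of exposure cannot be told apart from the experiment in these tests. Insig1 responded lower in directly exposed PGCLCs than in iPSCs, with a difference of -0.21 ± 0.057 (SE, adjusted p = 0.0228) on the log2 scale (limma), and kept its call in 7 of 12 fits that left out a library. Elovl6 also responded lower in PGCLCs than in iPSCs (-0.28 ± 0.06 SE, adjusted p = 0.00659), with exposed libraries below the vehicle in 3 of 3 PGCLC samples, and kept its call in 12 of 12. Fads2 responded higher in PGCLCs than in iPSCs (0.25 ± 0.065 SE, adjusted p = 0.0192), and kept its call in 10 of 12. Fdps responded lower in PGCLCs derived from exposed iPSCs than in directly exposed PGCLCs (-0.31 ± 0.07 SE, adjusted p = 0.0416), and kept its call in 2 of 12. A test for a single outlying sample needs groups of 4 or more and was not run on these groups of 3.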

How the results depend on the processing

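No call of a member turned round under any alternative except Ebp in vehicle Sertoli cells against iPSCs, called at 0.11, which came to -0.0085 with upper-quartile scaling. Of the values of called members recomputed under the alternatives, 599 of 751 kept their call in the exposure comparisons, 62 of 84 in the differences of responses and 2817 of 2865 between vehicle groups. The class medians of the dose series kept their sign under both other scalings.

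Without a filter on low values, members called were 2 higher in iPSCs at 1 µM, 0 lower at 50 µM, 0 lower in Sertoli cells and 3 higher in directly exposed PGCLCs. Fits of 6 libraries per dose gave 2 higher at 1 µM, 5 lower at 50 µM and 4 lower at 100 µM. Median-ratio scaling gave 0 lower in iPSCs at 50 µM, 2 lower in granulosa cells and 5 higher in directly exposed PGCLCs. Upper-quartile scaling gave 0 lower in iPSCs at 50 µM, 5 lower in Sertoli cells, 2 lower in granulosa cells, 2 higher in directly exposed PGCLCs, 2 lower in the response of Sertoli cells against iPSCs, 2 lower in that of granulosa cells against iPSCs and 0 higher in that of PGCLCs against iPSCs. An added CPM of 1 gave 1 lower at 50 µM and 2 lower in the Sertoli against iPSC response, a filter at 5 CPM gave 2 lower in that response and 2 lower in derived against direct PGCLCs, and limma-voom gave 1 lower at 50 µM and 1 lower in the Sertoli against iPSC response. A fit of all 42 libraries gave 0 lower in Sertoli cells, 1 higher and 0 lower in directly exposed PGCLCs, 5 lower in propagation iPSCs, 1 lower in derived PGCLCs, 1 higher in vehicle PGCLCs against iPSCs, 1 lower in the response of Sertoli cells against iPSCs, 0 higher and 0 lower in that of PGCLCs against iPSCs and 2 lower in that of derived against direct PGCLCs. The cause of these changes was not tested. Shares of all genes called under each alternative are not given here.

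Same-numbered libraries did not deviate together (r of -0.24 to 0.11 across genes), so the numbers do not pair the samples. A replicate block gave 6 members lower in Sertoli cells and 1 lower in the response of Sertoli cells against iPSCs, and moved no other count of members by over 1.5 times.

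Leaving out each library in turn gave 1 to 5 members higher and 0 to 1 lower in iPSCs at 1 µM, 8 to 12 higher and 0 to 2 lower at 50 µM, 11 to 13 higher and 1 lower at 100 µM, 0 to 3 higher at 100 against 1 µM, 0 to 4 lower in Sertoli cells, 1 to 12 higher and 2 to 3 lower in directly exposed PGCLCs and 0 to 7 lower in propagation iPSCs. For differences of responses it gave 0 to 1 higher and 0 to 2 lower (Sertoli cells against iPSCs), 0 to 3 lower (granulosa cells against iPSCs), 0 to 2 higher and 1 to 3 lower (PGCLCs against iPSCs), 0 to 2 lower (Sertoli against granulosa cells) and 0 to 6 lower (derived against direct PGCLCs). Between vehicle groups it gave 1 to 2 higher (PGCLCs against iPSCs), 1 to 3 higher (derived PGCLCs against propagation iPSCs), 15 to 16 higher (Sertoli cells against iPSCs), 14 to 17 higher (propagation against dose-series iPSCs) and 17 to 22 higher and 2 to 3 lower (derived against direct PGCLCs). The share of all genes called with a library left out is not given here, so these counts cannot be set against a background.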
